A study of Mus musculus with 24 samples.

Results

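The hydroxysteroid dehydrogenases described here are 10 genes whose messenger RNA was measured in mouse liver: Hsd3b2, Hsd3b3, Hsd3b5, Hsd11b1, Hsd17b2, Hsd17b6, Hsd17b10, Hsd17b11, Hsd17b12 and Hsd17b13. They were chosen by name, with earlier results of these data known, and are 10 of the 18194 genes tested. Counts of members set beside shares of all genes therefore describe this list and do not test it. All 10 have annotated probe sets on the array (17 in all), and each gene was read from the probe set whose mean signal on the 24 arrays was highest. Male B6C3F1 mice, 7 to 10 weeks old on arrival, received diethylhexylphthalate (DEHP, a phthalate plasticiser and peroxisome proliferator) at 1150 mg/kg/day, or an equal volume of its corn oil vehicle, by oral gavage of 10 ml/kg. The 8 groups are DEHP at 2, 8, 24 and 72 h and corn oil at 2, 8, 24 and 72 h, with 3 Affymetrix arrays of 45101 probe sets in each, so the controls were gavaged too. Dosing was repeated every 24 h for 3 days, and the labels do not say how many doses came before each sampling time. The design text names 6 mice without relating them to the arrays, and nothing says that the arrays of a group are separate animals, so the p-values measure only the spread between these samples, which may be technical.

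Hydroxysteroid dehydrogenases use NAD or NADP cofactors to interconvert hydroxyl and keto groups on steroids, and in this way switch hormones between active and inactive forms. The 3-beta enzymes act at carbon 3, the 11-beta enzymes on glucocorticoids and the 17-beta enzymes at carbon 17. The last name also covers enzymes whose main known substrates are fatty acyl chains, retinoids or amino acid breakdown products, and 2 of the members here, Hsd17b11 and Hsd17b13, are proteins of the lipid droplet surface. The liver is a main site of steroid reduction and clearance, and in the mouse several of these genes differ between the sexes.

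Hepatocyte markers were high on all arrays and adrenal cortex markers low. The mean log2 signal of 6 hepatocyte markers lay between 13.45 and 13.68 on the 24 arrays, and the 6 adrenal cortex markers averaged 6.70 to 7.11. Of 8 measured genes that respond to PPAR alpha, the receptor that phthalates activate, 7 were called higher with DEHP at 2 h and at 8 h, and 4 at 24 h and at 72 h. Of all genes 0.616%, 1.28%, 0.253% and 1.13% were called higher at 2, 8, 24 and 72 h. A pair of corn oil arrays stood apart. Corn oil 8 h replicate 2 had an Actb 3' minus 5' difference of 1.46 log2 units, a sign of RNA degradation, against at most 0.82 on the others. On corn oil 72 h replicate 1 the neutrophil markers averaged 7.34, against at most 6.75 on the others. Without these 2 arrays the members called were as many at each time as with them. At 8 h the titles of DEHP replicate 2 and corn oil replicate 3 carry the same number, 14, so a slip in 1 of these labels is possible. DEHP 8 h replicate 2 had a mean correlation over all genes of 0.993 with the other DEHP 8 h arrays, against 0.989 with the corn oil 8 h arrays, and corn oil 8 h replicate 3 had 0.988 with the DEHP 8 h arrays, against 0.991 with the other corn oil 8 h arrays. Without both, the 8 h calls of Hsd17b11, Hsd3b2 and Hsd3b5 were kept and that of Hsd3b3 was lost. Exocrine pancreas markers were uneven, and their highest mean level (10.96) was on DEHP 2 h replicate 1. That array is not among the 2 left out above, and without it Hsd17b6 was also called, lower at 8 h and higher at 72 h. Tissue RNA cannot tell fewer cells of a type apart from less RNA per cell.

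Values below are log2 signals, differences are DEHP minus corn oil on that scale with their standard error (SE), and a gene was called where the adjusted p from limma, over all 18194 genes, was under 0.05. The level of 1 probe set was not set against that of another. At 2 h, 0 of the 10 members were called, where 0.83% of all genes were (0.616% higher and 0.214% lower). At an unadjusted p under 0.05 there were 3 members (Hsd3b5, Hsd17b2 and Hsd17b10, all lower), where 8.43% of all genes passed. At 8 h Hsd17b11 was called higher and Hsd3b2, Hsd3b3 and Hsd3b5 lower, where 4.13% of all genes were called (1.28% higher and 2.86% lower). Hsd3b5 is on the list for its fall at that time, so its difference there is given as a description and nothing is read from it. At 24 h 1 member was called, Hsd17b11, higher, where 0.297% of all genes were called (0.253% higher and 0.044% lower). At 72 h Hsd17b11 was called higher and Hsd11b1 lower, where 4.18% of all genes were called (1.13% higher and 3.05% lower).

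**Figure D1:**
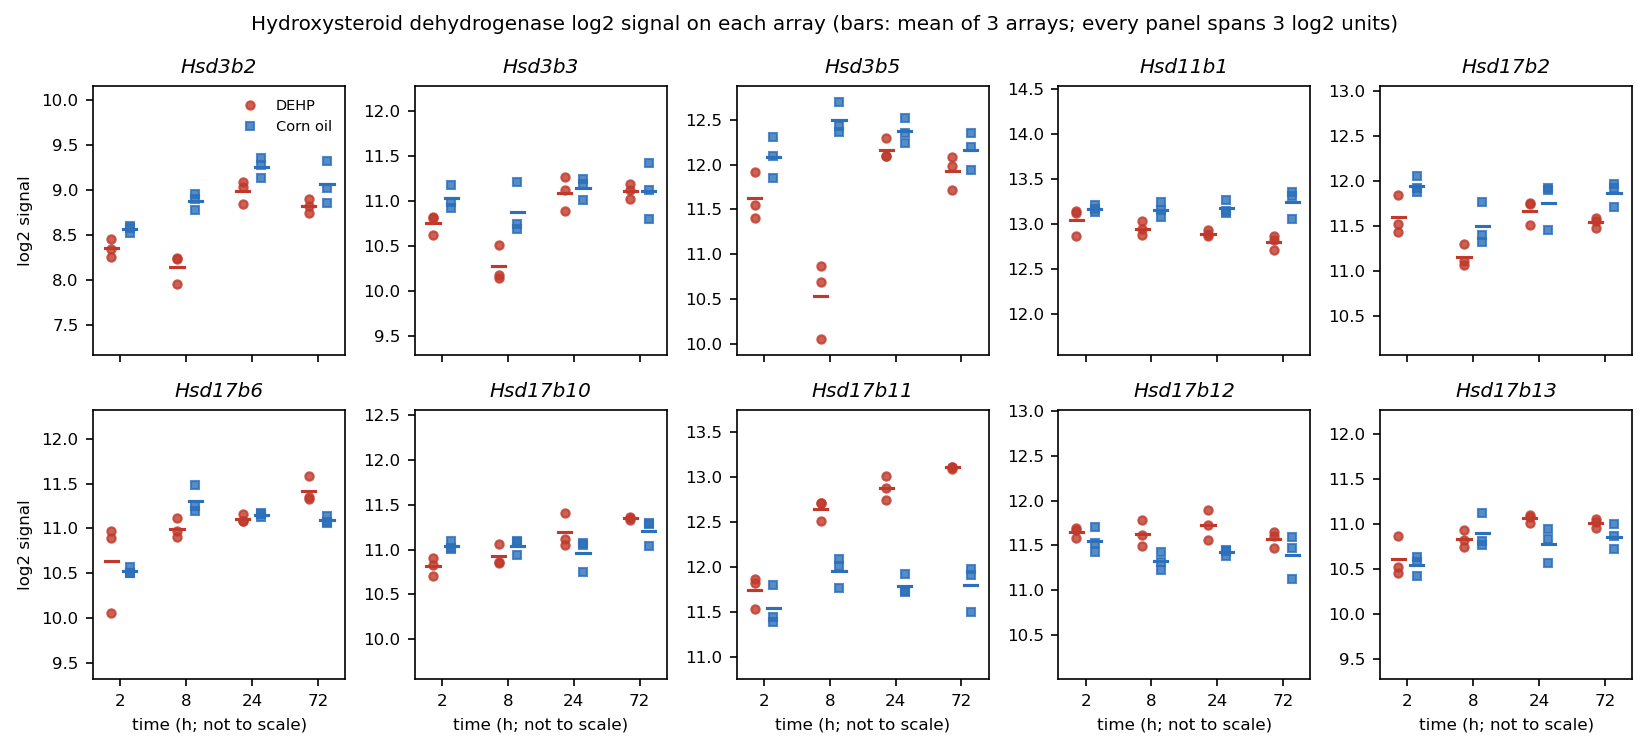
Log2 signal (vertical axis) of the 10 hydroxysteroid dehydrogenases on each of the 24 arrays by time in hours, with DEHP arrays as red circles to the left of corn oil arrays as blue squares and bars at the mean of 3 arrays. Hsd3b5 at 8 h lies between 10.05 and 10.87 with DEHP and between 12.36 and 12.70 with corn oil, and the DEHP and corn oil arrays of Hsd17b11 are apart from 8 h on.

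Members whose 3 DEHP arrays all lay on the same side of the 3 corn oil arrays were also counted. At 2 h this held for 4 of 10 members, all below, where it held for 11.4% of all genes. At 8 h it held for 8 of 10 members, 6 below and 2 above (Hsd17b11 and Hsd17b12), where it held for 18.6% of all genes. Hsd3b5, chosen for its fall at that time, is 1 of the 6, and without it the count was 7 of 9, 5 of them below, with a median difference of -0.21. It held for 5 of 10 at 24 h, with 13.8% of all genes, and for 5 of 10 at 72 h, with 28.2% of all genes. The median difference of the members was -0.17, -0.26, -0.05 and 0.07 at 2, 8, 24 and 72 h, and that of all genes was -0.02, -0.02, 0.00 and -0.03. The mean signals of the members lay between percentiles 77.4 and 99.4 of all genes. Shares of all genes thus include many genes with lower signal than the members.

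**Figure D2:**
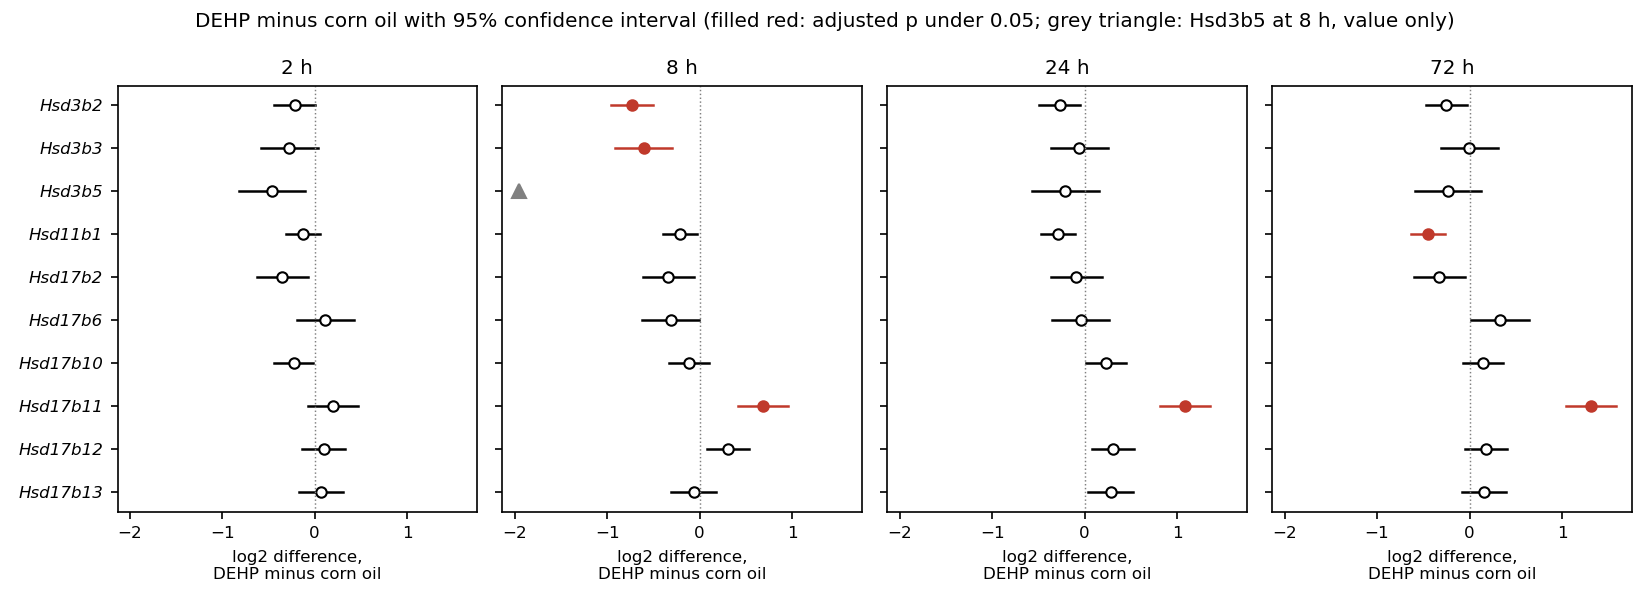
DEHP minus corn oil on the log2 scale (horizontal axis) for the 10 members in each of 4 panels by time, with 95% confidence intervals as bars, red filled points for members called at an adjusted p under 0.05, open black points for the others and a grey triangle for Hsd3b5 at 8 h. Hsd17b11 moves to the right with time to 1.31 at 72 h, and Hsd3b2 and Hsd3b3 are called lower in the 8 h panel only.

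The 3 members of the 3-beta family, Hsd3b2, Hsd3b3 and Hsd3b5, lie in a cluster on chromosome 3, where Hsd3b2 and Hsd3b3 are neighbours in the RefSeq annotation and no protein-coding gene separates Hsd3b2 from Hsd3b5. Hsd3b2 and Hsd3b3 are classed with the enzymes that oxidise and isomerise 3-beta-hydroxysteroids. Hsd3b5 is a liver enzyme of male mice that works as a 3-ketosteroid reductase. Promoters of these 3 genes, each called lower at 8 h, are shown with that of Hsd17b11, the member called higher, for contrast. Hsd3b5 was chosen for its fall at that time, and the Hsd3b3 call rested on single arrays. Whether the promoters bear on the 8 h falls was not tested. Each runs from 250 bases before to 50 after the annotated start, from RefSeq on GRCm38.p6, minus strand: Hsd3b5 at chr3:98645485-98645784, Hsd3b3 (the first of 2 listed starts) at chr3:98763079-98763378, Hsd3b2 at chr3:98724494-98724793 and Hsd17b11 at chr5:104021747-104022046. Capitals mark runs of at least 15 bases that Hsd3b5 shares with Hsd3b3 or Hsd3b2 and, in Hsd17b11, the motif CCAAT.
Hsd3b5: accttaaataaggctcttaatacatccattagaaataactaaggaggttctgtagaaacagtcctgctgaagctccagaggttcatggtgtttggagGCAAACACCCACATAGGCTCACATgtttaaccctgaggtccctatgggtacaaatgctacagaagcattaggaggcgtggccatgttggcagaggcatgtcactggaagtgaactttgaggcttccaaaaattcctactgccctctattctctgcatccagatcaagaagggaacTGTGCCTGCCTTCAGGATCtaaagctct
Hsd3b3: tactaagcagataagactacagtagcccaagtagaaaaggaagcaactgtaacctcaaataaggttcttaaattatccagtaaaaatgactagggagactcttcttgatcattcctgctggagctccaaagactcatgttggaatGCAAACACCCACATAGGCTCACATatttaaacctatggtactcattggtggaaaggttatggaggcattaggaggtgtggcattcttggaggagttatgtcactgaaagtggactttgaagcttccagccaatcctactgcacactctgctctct
Hsd3b2: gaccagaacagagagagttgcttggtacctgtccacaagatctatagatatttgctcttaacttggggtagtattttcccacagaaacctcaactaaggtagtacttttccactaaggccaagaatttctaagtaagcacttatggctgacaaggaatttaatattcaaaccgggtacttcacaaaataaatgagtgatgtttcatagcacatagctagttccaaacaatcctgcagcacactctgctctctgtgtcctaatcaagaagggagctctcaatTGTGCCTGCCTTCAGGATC
Hsd17b11: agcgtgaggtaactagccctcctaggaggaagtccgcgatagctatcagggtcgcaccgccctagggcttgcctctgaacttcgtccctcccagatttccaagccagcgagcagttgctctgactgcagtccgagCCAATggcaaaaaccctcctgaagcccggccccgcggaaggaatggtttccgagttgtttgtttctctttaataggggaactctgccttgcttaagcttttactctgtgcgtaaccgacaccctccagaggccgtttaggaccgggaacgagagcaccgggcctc

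In a pairwise alignment with free ends, the promoters of Hsd3b5 and Hsd3b3 were identical at 188 of 249 aligned bases (75.5%), with a longest shared run of 24. Hsd3b5 and Hsd3b2 were identical at 166 of 231 aligned bases (71.9%), with a longest shared run of 19 that lies after the start. Hsd3b3 and Hsd3b2 were identical at 60.0% of aligned bases with a shared run of 16. The same alignment gave 56.6% to 63.1% identity between Hsd17b11 and the 3-beta genes, with shared runs of at most 9 bases; the value for Hsd3b3 and Hsd3b2 lies within that range. RefSeq promoters were available for 9 of the 10 members, all but Hsd17b2. Among them AGGTCA, the nuclear receptor half-site, occurred on either strand in Hsd17b13 alone, and in 16.3% of all 32851 promoters of that length. The direct repeat of that half-site with 1 free base between the copies (DR1), which contains the half-site, was in none of the members and in 0.0396% of all promoters. TTCNNNGAA, the motif of STAT proteins, was in none of the members and in 8.30% of all, and TATAAA in none and in 13.6%. CCAAT was found for 6 members (Hsd3b3, Hsd11b1, Hsd17b6, Hsd17b10, Hsd17b11 and Hsd17b12) and in 37.4% of all promoters.

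Hsd3b5 had log2 signals of 10.05, 10.70 and 10.87 with DEHP at 8 h, against 12.36, 12.70 and 12.43 with corn oil. The 2 groups were far apart, and DEHP replicate 1 was the lowest of all 24 arrays. The difference was -1.96 ± 0.17 (SE, n = 3 arrays per group), a 3.88-fold lower signal, and it stayed between -2.12 and -1.71 when each array in turn was left out. At 2 h the gene had 11.40, 11.92 and 11.55 with DEHP, against 12.09, 12.31 and 11.85 with corn oil. Those groups overlapped, and the difference of -0.46 ± 0.17 was not called (adjusted p = 0.376). At 24 h the values were 12.30, 12.09 and 12.10 with DEHP, against 12.35, 12.52 and 12.23 with corn oil. At 72 h they were 11.98, 11.72 and 12.09 with DEHP, against 11.94, 12.19 and 12.36 with corn oil. The groups overlapped at both times, and the differences of -0.21 ± 0.17 and -0.23 ± 0.17 were not called, with 95% confidence intervals from -0.57 to 0.15 and from -0.59 to 0.13. Ordered by mean level, corn oil at 8, 24 and 72 h (12.49, 12.37 and 12.16) came first and DEHP at 8 h (10.54 ± 0.43, SD) last. The gap of 1.09 between DEHP at 8 h and the next group, DEHP at 2 h, was the only step between neighbours in that order at which the arrays did not overlap.

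Likeness over the 24 arrays was ranked by Pearson's r, only among genes tested whose symbol begins with a capital letter. The 5 genes most like Hsd3b5 were Slc66a2 (0.90), Apol7a (0.88), Abca8a (0.88), Rbbp4 (0.86) and Tle2 (0.85). These values share the arrays and the groups of the study and describe these data only. The arrays include the 8 h fall of Hsd3b5, so a dip at 8 h in the genes most like it follows from how they were picked. At 8 h the differences of the 5 genes ran from -1.60 for Apol7a to -0.62 for Rbbp4, and at the other 3 times from -0.41 to 0.04. For Hsd17b11 the most like genes were Acadvl (0.96), Decr1 (0.96), Acadl (0.95), Retsat (0.95) and Eci1 (0.95), of which Acadvl and Acadl encode acyl-CoA dehydrogenases and Retsat the retinol saturase. Their differences at 72 h ran from 0.45 for Acadvl to 2.28 for Retsat. These genes too were picked on the same arrays, so their rise gives no support.

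**Figure D3:**
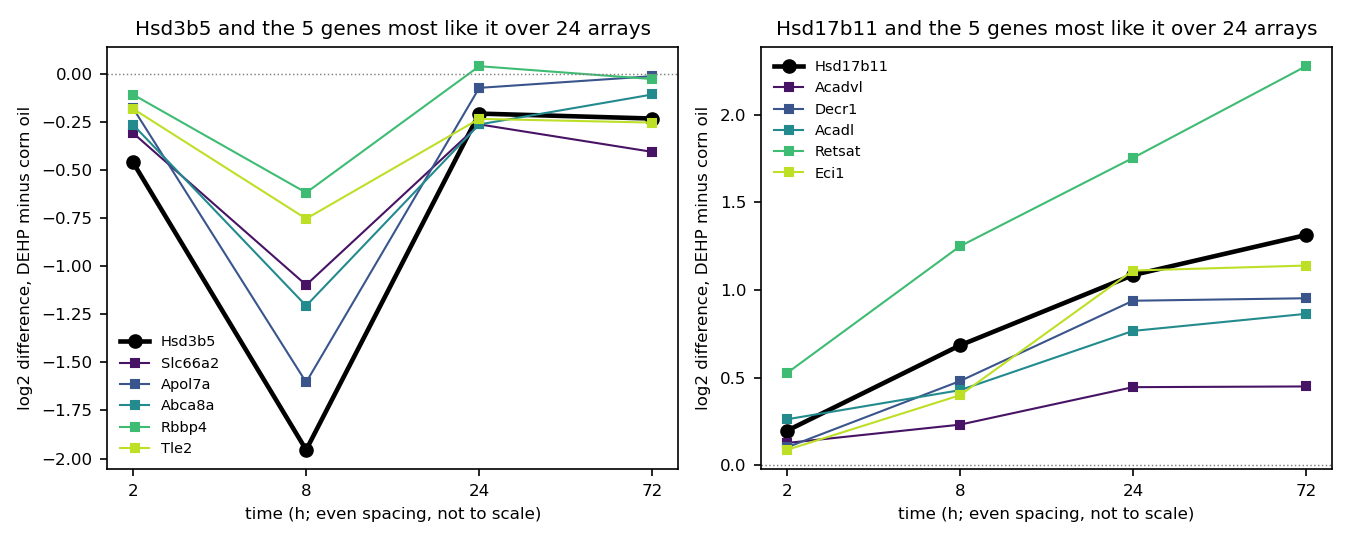
DEHP minus corn oil on the log2 scale (vertical axis) by time in hours, for Hsd3b5 with its 5 most like genes (left) and Hsd17b11 with its 5 most like genes (right), the member in black. The left lines dip at 8 h, to -1.96 for Hsd3b5 and -1.60 for Apol7a, and lie within 0.5 of 0 at the other times, whereas each line on the right is higher at 72 h than at 2 h. The 5 genes of each panel were picked for likeness on these same arrays, so the shared shapes follow from that choice.

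Hsd3b2 fell at 8 h. Its log2 signals were 7.96, 8.23 and 8.25 with DEHP, against 8.77, 8.90 and 8.95 with corn oil, and the groups did not overlap. The difference was -0.73 ± 0.11 (adjusted p = 0.000209), a 1.66-fold lower signal. At 24 h it had 9.09, 9.03 and 8.84 with DEHP, against 9.27, 9.13 and 9.36 with corn oil. All DEHP arrays were again below, but the difference of -0.27 ± 0.11 was not called (adjusted p = 0.516). The values were 8.34, 8.25 and 8.45 with DEHP at 2 h, against 8.51, 8.59 and 8.58 with corn oil, and 8.90, 8.74 and 8.82 with DEHP at 72 h, against 9.02, 8.86 and 9.33 with corn oil. Neither difference (-0.21 ± 0.11 and -0.25 ± 0.11) was called. The F test of whether the DEHP effect on Hsd3b2 differed between times was not called (adjusted p = 0.140). Averaged over the 4 times, Hsd3b2 was lower by -0.37 ± 0.05 (adjusted p = 0.000149).

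Hsd3b3 had 10.14, 10.51 and 10.18 with DEHP at 8 h, against 10.74, 10.69 and 11.21 with corn oil. The groups did not overlap, and corn oil replicate 3 was well above the other corn oil arrays. The difference of -0.60 ± 0.15 was called (adjusted p = 0.0189), but the call rested on single arrays. It was lost without corn oil 8 h replicate 3 (-0.44, adjusted p = 0.126), DEHP 8 h replicate 1 (-0.54, adjusted p = 0.103) or DEHP 8 h replicate 3 (-0.56, adjusted p = 0.102), and without both arrays numbered 14 (-0.56, adjusted p = 0.0502). Over all 38 alternatives the adjusted p ran from 0.00775 to 0.203. The second probe set of Hsd3b3 gave -0.99 ± 0.38 and was not called. Probes of the main probe set can match related transcripts, as the suffix of its name (_x_at) marks, and a further probe set annotated to several 3-beta genes was not used. At the other times the main probe set differed by -0.28 ± 0.15 at 2 h, -0.05 ± 0.15 at 24 h and 0.00 ± 0.15 at 72 h, none of them called. The second probe set gave -1.16 ± 0.38 at 2 h, -0.60 ± 0.38 at 24 h and 0.34 ± 0.38 at 72 h, none of them called either, so the sizes for Hsd3b3 depend on the probe set. Over the 24 arrays the 3 genes correlated pairwise with r between 0.77 and 0.79, and with r between 0.36 and 0.46 after the group means were taken out. The first values include the 8 h fall for which Hsd3b5 was chosen. They were not particular to the 3-beta genes, as Hsd3b3 and Hsd17b2 had r of 0.78. With group means out, Hsd3b3 had r of 0.71 with Hsd17b12, 0.68 with Hsd17b2 and 0.56 with Hsd17b10. With the other 11-beta and 17-beta members it had 0.05 to 0.28.

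Hsd3b5 is known as a male-biased liver gene in the mouse, and other sex-biased genes were counted beside it. Of all genes 1.28% were called higher and 2.86% lower at 8 h, and 1.13% higher and 3.05% lower at 72 h. A count of 1 in lists as short as those below says little beside such shares. Of 16 measured male-biased genes other than the members, 0 were higher and 2 lower at 8 h, with a median of -0.18. The member of that list with the largest fall was Cyp2u1, a fatty acid hydroxylase, at -0.61 ± 0.10 (adjusted p = 0.000862). Of 13 measured female-biased genes 1 was higher at 8 h, Acot3, an acyl-CoA thioesterase that is also induced by peroxisome proliferators, at 3.33 ± 0.35 (adjusted p = 3.07e-06), and 0 were lower. Of 16 measured genes of growth hormone and STAT5 signalling, 0 were higher and 1 was lower at 8 h, with a median of -0.33. That gene was Stat5b, the transcription factor downstream of the growth hormone receptor, with a mean of 8.03 ± 0.15 (SD, n = 3) with DEHP, against 8.58 ± 0.07 with corn oil, a difference of -0.55 ± 0.11 (adjusted p = 0.00323). The 8 h counts of lower genes in the male-biased list ran from 1 to 3 and in the growth hormone list from 1 to 2 when single arrays were left out. Whether the sex-biased or growth hormone genes bear on the level of Hsd3b5 was not tested. The median of the growth hormone list was -0.07 at 2 h, -0.19 at 24 h and -0.26 at 72 h. At these times 0, 0 and 3 of its genes were called lower, with 0 to 4 at 72 h when single arrays were left out. The 3 genes at 72 h were Ptpn1, a phosphatase (-0.50 ± 0.14, adjusted p = 0.0483), Hnf4a, a hepatocyte transcription factor (-0.46 ± 0.11, adjusted p = 0.0221), and Igf1, the growth factor that growth hormone induces in liver (-0.33 ± 0.08, adjusted p = 0.0212).

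Hsd11b1, which regenerates active corticosterone from its inert keto form in the liver, fell at 72 h. Its log2 signals were 12.71, 12.86 and 12.82 with DEHP, against 13.06, 13.36 and 13.31 with corn oil. All DEHP arrays were below all corn oil arrays, and the difference of -0.44 ± 0.09 was called (adjusted p = 0.00748), a 1.36-fold lower signal. The call was lost without corn oil 72 h replicate 2 (-0.39, adjusted p = 0.0514), the highest adjusted p among 38 alternatives, whose lowest was 0.00256. The differences were -0.13 ± 0.09 at 2 h, -0.21 ± 0.09 at 8 h and -0.28 ± 0.09 at 24 h, none of them called. At 8 h the DEHP arrays had 12.94, 12.87 and 13.03, against 13.07, 13.16 and 13.24 with corn oil. At 24 h they had 12.88, 12.86 and 12.93, against 13.15, 13.12 and 13.26 with corn oil. The DEHP arrays were below without overlap at both times. In the order of group means all 4 corn oil groups (13.16 to 13.24) came before the DEHP groups at 2, 8, 24 and 72 h (13.04, 12.95, 12.89 and 12.80), and every neighbouring pair overlapped. Averaged over the 4 times Hsd11b1 was lower by -0.27 ± 0.04 (adjusted p = 0.000634), and the F test for a different effect between times was not called (adjusted p = 0.463).

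Markers of macrophages and of endothelium had lower mean levels with DEHP at 72 h. The macrophage mean was 8.53, 8.58 and 8.84 with DEHP, against 9.43, 9.07 and 9.37 with corn oil, without overlap. Of the 8 macrophage markers 4 were called lower, where 3.05% of all genes were. From 0 to 7 markers were called lower when single arrays were left out, so that count rests on single arrays. The endothelial mean was 8.22, 8.26 and 8.46 with DEHP, against 8.64, 8.66 and 8.93 with corn oil, also without overlap. All 7 endothelial markers had negative differences, with a median of -0.39, but limma called 0 of them (2 at an unadjusted p under 0.05), and from 0 to 2 when single arrays were left out. Hepatocyte markers averaged 13.56, 13.60 and 13.59 with DEHP at 72 h, against 13.57, 13.68 and 13.62 with corn oil. Whether the macrophage or endothelial markers bear on the fall of Hsd11b1 was not tested. Among all genes 4.13%, 0.297% and 4.18% were called at 8, 24 and 72 h. Of 18 genes of the glucocorticoid receptor and its hepatic targets, 2 were higher and 1 lower at 8 h, 1 was higher at 24 h and 2 were lower at 72 h, with a median of -0.24 at 72 h. When single arrays were left out, 1 to 2 were higher and 0 to 1 lower at 8 h, 1 was higher at 24 h and 0 to 3 were lower at 72 h. Dusp1, a phosphatase of MAP kinases, had the largest change of the list at 8 h and was lower by -1.26 ± 0.31 (adjusted p = 0.0189). That call failed when replicate 2 or 3 of either 8 h group was left out, with differences from -1.46 to -1.06 over the single-array omissions. Tat, the tyrosine aminotransferase, was higher at 8 h by 0.67 ± 0.10 (adjusted p = 0.00038) and Sgk1, a kinase, at 24 h by 1.02 ± 0.17 (adjusted p = 0.00437). At 72 h Tsc22d3 was lower by -0.82 ± 0.18 (adjusted p = 0.0146), with differences from -0.96 to -0.66 over the single-array omissions. Its call was lost without corn oil 72 h replicate 2 or DEHP 72 h replicate 3. Averaged over the 4 times Tsc22d3 was lower by -0.49 ± 0.09 (adjusted p = 0.0019). Sgk1 was also lower at 72 h, by -0.79 ± 0.17 (adjusted p = 0.0128). That last call was not kept when corn oil 72 h replicate 3 or DEHP 72 h replicate 3 was left out, with differences from -0.92 to -0.64 over the single-array omissions.

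Hsd17b2, which oxidises estradiol and testosterone to their weaker 17-keto forms, was lower with DEHP by small amounts that were not called at any single time. At 2 h it had 11.52, 11.85 and 11.43 with DEHP, against 11.92, 12.06 and 11.88 with corn oil. At 8 h it had 11.11, 11.30 and 11.06, against 11.39, 11.32 and 11.77, and at 72 h 11.59, 11.47 and 11.56, against 11.92, 11.71 and 11.97, DEHP before corn oil each time. The groups did not overlap at these 3 times but did at 24 h. The differences were -0.35, -0.34, -0.09 and -0.33 at 2, 8, 24 and 72 h (SE 0.13 each), with adjusted p of 0.38, 0.176, 0.899 and 0.156. Averaged over the times the difference of -0.28 ± 0.07 was called (adjusted p = 0.0137).

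Hsd17b6, an oxidative enzyme of the retinol dehydrogenase group that acts on androgens, was called at no time with all arrays in. At 8 h it had 10.97, 10.90 and 11.12 with DEHP, against 11.19, 11.25 and 11.48 with corn oil. At 72 h it had 11.59, 11.33 and 11.35 with DEHP, against 11.06, 11.07 and 11.14 with corn oil. DEHP arrays were thus all below at 8 h and all above at 72 h, by -0.31 ± 0.15 (adjusted p = 0.311) and 0.33 ± 0.15 (adjusted p = 0.200), and the F test of a difference between times was not called (adjusted p = 0.299). At 2 h the DEHP arrays had 10.06, 10.97 and 10.89, against 10.51, 10.57 and 10.50 with corn oil. The low value was replicate 1, the array with the exocrine pancreas markers at 10.96, against 7.29 and 7.27 on the other 2 DEHP arrays of that time. Those markers were also uneven in corn oil at 2 h, at 8.72, 9.53 and 7.25 on replicates 1, 2 and 3. At 72 h they were at 9.19 on DEHP replicate 1, which had the highest Hsd17b6 value of its group. On corn oil 72 h replicate 1 they were at 9.76, with the lowest Hsd17b6 value of its group. Their part in the Hsd17b6 values was not tested. Without DEHP 2 h replicate 1 Hsd17b6 was called lower at 8 h (adjusted p = 0.041) and higher at 72 h (adjusted p = 0.0326). It was also called different between times (adjusted p = 0.0076). The differences at 8 h and 72 h were the same, with an SE of 0.09. Over the alternatives the adjusted p ran from 0.041 to 0.749 at 8 h, from 0.0326 to 0.859 at 72 h and from 0.0076 to 0.938 between times. The second, dimmer probe set of Hsd17b6 gave -0.13 at 8 h and -0.05 at 72 h.

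Other genes of steroid handling were counted too, where 0.83%, 4.13%, 0.297% and 4.18% of all genes were called at 2, 8, 24 and 72 h. Of 16 measured genes of steroid synthesis, reduction and clearance, 1 was lower at 2 h (Akr1d1, the steroid 5-beta-reductase, -0.77 ± 0.18, adjusted p = 0.0421), 1 was higher at 8 h (Ugt2b34, a glucuronosyltransferase, 0.35 ± 0.09, adjusted p = 0.0329) and 0 were called at 24 h or 72 h. Both calls rested on single arrays. The Akr1d1 call was kept in 9 of 24 single-array omissions, with differences from -0.86 to -0.68. The Ugt2b34 call was kept in 20 of 24, with differences from 0.26 to 0.41, and was lost without corn oil 8 h replicate 1 or 2 or DEHP 8 h replicate 1 or 2. Of 9 measured retinol dehydrogenases related to Hsd17b6, 2 were higher and 1 lower at 72 h. Rdh16, which oxidises retinol and androgens, was higher by 1.57 ± 0.29 (adjusted p = 0.00431), Dhrs4, a peroxisomal carbonyl and retinol reductase, was higher by 0.64 ± 0.14 (adjusted p = 0.012), and Rdh5 was lower by -0.90 ± 0.11 (adjusted p = 3.48e-05).

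Hsd17b11, a lipid droplet enzyme named in mouse and human for activity on 17-hydroxysteroids, was called higher at 3 of the 4 times. At 2 h it had 11.54, 11.82 and 11.86 with DEHP, against 11.44, 11.80 and 11.38 with corn oil, and the groups overlapped. At 8 h it had 12.71, 12.51 and 12.71 with DEHP, against 11.77, 12.09 and 12.01 with corn oil. At 24 h it had 12.75, 13.01 and 12.88 with DEHP, against 11.92, 11.72 and 11.73 with corn oil. At 72 h it had 13.12, 13.12 and 13.09 with DEHP, against 11.50, 11.90 and 11.98 with corn oil. From 8 h on every DEHP array was above every corn oil array, and in the order of means DEHP at 72, 24 and 8 h came first, with no overlap between these neighbours. The difference was 0.20 ± 0.13 at 2 h (adjusted p = 0.754), 0.68 ± 0.13 at 8 h (adjusted p = 0.00244), 1.09 ± 0.13 at 24 h (adjusted p = 7.85e-05) and 1.31 ± 0.13 at 72 h (adjusted p = 1.86e-06). These are 1.61-fold, 2.12-fold and 2.49-fold higher signals at 8, 24 and 72 h.

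The DEHP effect on Hsd17b11 differed between times (F test, adjusted p = 0.0047), as it did for 2.08% of all genes. No step between successive times was called for Hsd17b11. The second probe set of Hsd17b11 gave larger differences of 1.30, 1.60 and 1.62 at 8, 24 and 72 h, with an SE of 0.35. With that probe set as the gene's value the calls at 8 h and 72 h held, the 24 h call did not (adjusted p = 0.0572, the highest of 38 alternatives, whose lowest was 1.24e-05), and the test between times did not (adjusted p = 0.259, the highest of 37 alternatives, whose lowest was 0.00261). The remaining, dim probe set gave 0.33 at 8 h, 0.01 at 24 h and 0.16 at 72 h.

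Hsd17b13, which adjoins Hsd17b11 on chromosome 5 with no gene between them in RefSeq, was not called at any time. At 24 h it had 11.07, 11.10 and 11.02 with DEHP, against 10.84, 10.56 and 10.95 with corn oil, without overlap. The difference there was 0.28 ± 0.12 (adjusted p = 0.538). The differences were 0.07 ± 0.12 at 2 h, -0.07 ± 0.12 at 8 h and 0.15 ± 0.12 at 72 h, the last with a 95% confidence interval from -0.09 to 0.40. The second probe set of Hsd17b13 had the opposite sign at 24 h (-0.09) and at 72 h (-0.23). Among 21 proteins of the lipid droplet, the surface to which both enzymes bind, 3 genes were higher at 2 h, 8 higher and 2 lower at 8 h, 0 called at 24 h and 2 higher at 72 h. The medians of that list were 0.09, 0.17, 0.02 and -0.03. Of all genes 0.616%, 1.28%, 0.253% and 1.13% were called higher at 2, 8, 24 and 72 h, and 2.86% lower at 8 h. G0s2, an inhibitor of the lipase Pnpla2, was higher by 2.39 ± 0.36 at 2 h (adjusted p = 0.000556) and by 2.37 ± 0.36 at 8 h (adjusted p = 0.000252). Plin2, a droplet coat protein, was higher by 0.93 ± 0.12 at 2 h (adjusted p = 0.000103), and Plin3, another coat protein, was lower by -0.80 ± 0.12 at 8 h (adjusted p = 0.000232). The 8 h count of higher genes ran from 5 to 9 when single arrays were left out.

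Hsd17b12, the 3-ketoacyl reductase of fatty acid elongation in the endoplasmic reticulum, had 11.62, 11.78 and 11.49 with DEHP at 8 h, against 11.23, 11.32 and 11.43 with corn oil. At 24 h it had 11.56, 11.90 and 11.73 with DEHP, against 11.39, 11.45 and 11.43 with corn oil. All DEHP arrays were above at both times, by 0.31 ± 0.11, and neither difference was called (adjusted p = 0.136 and 0.468). Averaged over the times Hsd17b12 rose by 0.22 ± 0.06 (adjusted p = 0.0175). Its second probe set gave 0.61 ± 0.17 at 8 h, which was called with that probe set as the gene's value (adjusted p = 0.047, the lowest of 38 alternatives, whose highest was 0.403). Of 11 genes on the fatty acid elongation list 2 were called higher at 8 h, where 1.28% of all genes were. Kdsr, the 3-ketodihydrosphingosine reductase, is not itself an elongation enzyme and was higher by 0.82 ± 0.15 (adjusted p = 0.00161). Hacd1, a hydroxyacyl dehydratase, was higher by 0.55 ± 0.11 (adjusted p = 0.00644).

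Hsd17b10, a mitochondrial enzyme of isoleucine breakdown and a subunit of mitochondrial ribonuclease P, had opposite signs at 2 h and 72 h and was called at no time. At 2 h it had 10.82, 10.91 and 10.71 with DEHP, against 11.01, 11.10 and 11.02 with corn oil. At 72 h it had 11.37, 11.36 and 11.33 with DEHP, against 11.04, 11.30 and 11.29 with corn oil. DEHP arrays were all below at 2 h, by -0.23 ± 0.10, and all above at 72 h, by 0.14 ± 0.10, and the F test of a difference between times was not called (adjusted p = 0.194). Of 20 genes of mitochondrial branched-chain amino acid and fatty acid oxidation, 0 were called at 2 h, 3 were higher at 8 h and at 24 h and 4 at 72 h. Of all genes 1.28%, 0.253% and 1.13% were called higher at 8, 24 and 72 h. Most of the list did not rise early: 16 of the 20 differences were negative at 2 h and 15 at 8 h, against 9 at 24 h and 7 at 72 h. The medians of the list were -0.12, -0.10, 0.03 and 0.08 at 2, 8, 24 and 72 h. Acadm, an acyl-CoA dehydrogenase, was higher by 0.71 ± 0.10 at 24 h (adjusted p = 0.000939) and 0.88 ± 0.10 at 72 h (adjusted p = 3.23e-05), and Hadha and Hadhb, the subunits of the trifunctional protein, were called at the same times.

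Averaged over the 4 times, 6 of 10 members were called, where 6.41% of all genes were (1.98% higher and 4.42% lower): Hsd17b11 (0.82 ± 0.06) and Hsd17b12 higher, and Hsd3b2, Hsd3b5 (-0.71 ± 0.09), Hsd11b1 and Hsd17b2 lower. Hsd3b3 missed the threshold at -0.23 ± 0.07 (adjusted p = 0.0601). That average was called in 5 of 13 other settings, among them the block of first replicates against later ones (adjusted p = 0.0464) and the fit without the 2 arrays that stood apart (-0.30, adjusted p = 0.0119), and in 3 of 24 single-array omissions. With the second probe set it was -0.60 ± 0.19 and not called (adjusted p = 0.0773). The Hsd3b5 average contains the 8 h difference and is a description. Hsd17b6, Hsd17b10 and Hsd17b13 had averages of 0.02, 0.01 and 0.11.

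Among 14 measured genes of the same enzyme family outside the 10, 4 were called at some time. Of all genes, 0.83%, 4.13%, 0.297% and 4.18% were called at 2, 8, 24 and 72 h. Hsdl2, a peroxisomal member, was higher by 1.01 ± 0.14 at 2 h, 1.36 ± 0.14 at 8 h, 0.88 ± 0.14 at 24 h and 0.63 ± 0.14 at 72 h (adjusted p between 3.22e-06 and 0.0165), the last call being lost without corn oil 72 h replicate 1 or DEHP 72 h replicate 1 (0.48 to 0.75 over the single-array omissions). Hsd17b4, the D-bifunctional protein of peroxisomal beta-oxidation, was higher by 0.50 ± 0.10 at 8 h, 0.65 ± 0.10 at 24 h and 0.61 ± 0.10 at 72 h (adjusted p between 0.00104 and 0.00347). Hsd3b7, the 3-beta enzyme of bile acid synthesis, was lower by -0.39 ± 0.10 at 8 h (adjusted p = 0.0177) and Hsdl1 by -0.37 ± 0.08 (adjusted p = 0.0108). Both of these calls were lost without corn oil 8 h replicate 2, DEHP 8 h replicate 1 or DEHP 8 h replicate 3, and that of Hsd3b7 also without corn oil 8 h replicate 3. Over all 24 single-array omissions the differences ran from -0.50 to -0.31 for Hsd3b7 and from -0.41 to -0.34 for Hsdl1.

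The corn oil arrays alone differed between times for 2 of 10 members, Hsd3b2 and Hsd17b6, where 3.55% of all genes were called. Hsd3b2 in corn oil had means of 8.56 ± 0.04, 8.87 ± 0.09, 9.26 ± 0.11 and 9.07 ± 0.24 at 2, 8, 24 and 72 h (SD, n = 3 each; adjusted p = 0.00226). Hsd17b6 in corn oil had means of 10.53 ± 0.03, 11.31 ± 0.16, 11.15 ± 0.02 and 11.09 ± 0.04 at the same times (adjusted p = 0.0121). Its step from 2 h to 8 h, 0.78 ± 0.15, was called (adjusted p = 0.00325), where 4.06% of all genes were. With the second probe set that step was 0.27 ± 0.12 and not called (adjusted p = 0.292). The call between times for Hsd17b6 was lost without corn oil 2 h replicate 1 (adjusted p = 0.06) or replicate 3 (adjusted p = 0.0532), and with the second probe set (adjusted p = 0.497), the highest of 37 alternatives, whose lowest was 6.27e-05. A time of sampling and the number of doses or hours since arrival cannot be told apart in these groups.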

How the data were processed

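Liver RNA of 24 samples was biotin-labelled for Affymetrix arrays, per the labels. The deposited values are log2 signals, which the authors made with RMA (background correction, quantile normalization and summary per probe set), per the submitters' processing notes; its version is not given in the sources used here. Arrays have no depth, so their number limits the precision, and no detection calls were used.

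Probe sets were named through the supplied platform annotation (1 symbol for 34958 probe sets; 932 with several symbols were not used for genes), and the probe set with the highest mean stood for each of 18194 genes. Groups came from the labels. In R 4.3.3 with limma 3.58.1, a linear model with a mean for each of the 8 groups, fitted to the 24 arrays together, gave moderated tests at each time, their average, F tests of differences between times, and Benjamini-Hochberg adjusted p-values over all genes. The fit was tested on simulated data. Promoters were aligned with Biopython 1.88.

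The members, the 12 further gene lists and the 11 marker lists were chosen with earlier results of these data known. Named genes are the members, up to 3 called genes of a list and time by size of change, of which the text names a part, other family members wherever called, and the 5 genes most like Hsd3b5 and Hsd17b11. Listed genes without an annotated probe set are not analysed here. Alternatives changed 1 choice at a time: blocks, probe set choice, filter, variance model, scaling, threshold, an Actb covariate and left-out arrays.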

Additional observations from a re-analysis of the deposited data

Results flagged for a closer look

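The effect of DEHP on Hsd3b5 differed between times. The difference between DEHP and corn oil was lower at 8 h than at 2 h by -1.49 log2 units (SE 0.25) and higher at 24 h than at 8 h by 1.75 (SE 0.25), and the F test over times gave an adjusted p of 0.000596. The gene was put on the list for this pattern, so these values describe it and give no further support. Both steps share the 8 h arrays.

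The effect on Hsd17b11 also differed between times (F test, adjusted p = 0.0047), with differences of 0.20, 0.68, 1.09 and 1.31 at 2, 8, 24 and 72 h. No group held more than 3 arrays, so single arrays were not tested for standing apart.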

How the results depend on the processing

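Of 20 called values of the members, 17 kept their call in all 24 fits that left out 1 array. In the other 14 settings 13 kept it, and none of the members' values reversed a call. These counts include the called values of Hsd3b5, which was chosen for its 8 h fall. Its values kept their call in every setting, which raises the counts and gives no support. With the replicate number as a block, the members called were as many in every test (2 for a difference between times, for example), and all genes called were 158, 763, 52 and 758 at 2, 8, 24 and 72 h; no member's call changed. Same-numbered arrays of a time deviated from their group means with r from -0.35 to 0.14, and differently numbered ones with r from -0.34 to 0.33. With such a spread and 3 arrays per group, these values cannot tell whether the numbers pair the samples.

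Leaving out each array gave 65 to 239 genes at 2 h, 388 to 852 at 8 h, 27 to 97 at 24 h and 247 to 1095 at 72 h, 229 to 499 for an effect that differs between times and 309 to 948 for corn oil between times. Members called lower at 72 h ran from 0 to 1 and higher from 1 to 2, and members that differed between corn oil times from 1 to 2. At an adjusted p under 0.01 the genes called were 62, 346, 29 and 176 at 2, 8, 24 and 72 h, 460 for the average, 119 between times and 239 for corn oil, with 1 member higher on average and 1 between corn oil times. With only the 6 arrays of a time there were 95, 424 and 21 genes at 2, 8 and 24 h. The second probe set gave 2 members higher at 8 h, 0 at 24 h, 1 that differed between times and 1 between corn oil times, with 485 genes at 72 h, 775 for the average and 236 between times. The mean of a gene's probe sets left 1 member that differed between times. All probe sets as features gave 1189 at 8 h and 1086 between corn oil times. The Actb covariate gave 327 at 8 h, 224 between times and 181 between corn oil times, and leaving out the 2 arrays that stood apart 489 at 8 h and 402 between corn oil times. For settings that change the samples, genes or threshold used, this follows from their construction; for the others the cause was not tested. Signal over background could not be judged without detection calls.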

Other observations

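The core clock is a gene group that the comparisons above did not describe. Among all genes 0.214% were called lower at 2 h, and 3.05% lower and 1.13% higher at 72 h. Of 16 measured clock genes 1 was called lower at 2 h and 3 lower and 1 higher at 72 h, and 0 were called at 8 h or 24 h. At 72 h Arntl, an activator of the clock, differed by -0.81 ± 0.20 (adjusted p = 0.0249), and Nr1d1, a repressor in the same loop, by 0.63 ± 0.16 (adjusted p = 0.0327). These counts rest on single arrays: leaving out each array in turn gave 0 to 4 lower at 2 h and 0 to 4 lower at 72 h. At 2 h Cry2, another clock repressor, differed by -0.42 ± 0.08 (adjusted p = 0.0093).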
